A study of Mus musculus with 3 samples.

Results

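The 9 genes described here encode molecules that bone marrow cells use to find, enter and hold on to the marrow niche: the chemokine receptor Cxcr4, the integrin subunits Itga4, Itgb1, Itgal and Itgb2, the selectin ligand Selplg, the hyaluronan receptor Cd44, the adhesion molecule Alcam and the matrix glycoprotein Emilin1. They were chosen by gene symbol among 56980 listed genes, and all 9 were present in the files. Their RNA was read in 3 droplet libraries of bone marrow nucleated cells taken at day 14. The Control library came from mice without irradiation, the IR library from mice given 6.0 Gy of gamma rays and solvent, and the IR+CBD library from mice given the same 6.0 Gy with cannabidiol, a non-intoxicating compound of the hemp plant, injected before and after irradiation. The mice were C57BL/6, male according to the methods for the radioprotection work, with no age given for these animals. Whether the Control mice received solvent is not stated. Each library pooled 3 mice, so there is 1 library per group and no replicate, and no test between conditions could be made.

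Homing to the marrow is understood as a series of steps. PSGL-1, the product of Selplg, and CD44 bind selectins on the vessel wall and let the cell roll, CXCR4 senses the chemokine CXCL12 made by stromal cells and switches integrins to their binding state, and the integrins VLA-4 (Itga4 with Itgb1) and LFA-1 (Itgal with Itgb2) then hold the cell to VCAM-1 and ICAM proteins. The same contacts, together with ALCAM, which binds itself and CD6, later keep stem and progenitor cells in place.

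Before loading, cells without lineage markers and with Kit, cells without either, and cells with lineage markers had been sorted and remixed at 5:4:1, so a share of cells describes the loaded mix and not the marrow. After removal of cells with fewer than 200 genes or more than 5% mitochondrial counts, 10674 Control, 10345 IR and 10273 IR+CBD cells remained, with 194839224, 202361682 and 173466089 UMIs. A UMI is the tag of 1 captured RNA molecule. Between 26 and 34 cell barcodes were shared by any 2 libraries. Levels are UMIs of a gene per 1000000 UMIs of a population (CPM), with exact Poisson 95% intervals, and ratios of CPM carry exact conditional binomial 95% intervals. All intervals cover counting error only and say nothing of differences between mice. Because these libraries count the 3′ ends of transcripts and the genes differ in length and capture, levels were compared for 1 gene across cells and not between genes. RNA per cell and the number of cells of a type cannot be told apart in a sum over all cells.

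Cells were also sorted in silico by raw UMIs of lineage genes: at least 5 Mpo, 2 Klf1, 2 Cd79a, 5 Retnlg, 3 Siglech, or 1 Cd34 together with 1 Adgrl4. The marker genes bore out most of these gates. All 10 B lineage markers were highest in the Cd79a cells, all 10 neutrophil markers in the Retnlg cells, all 9 measured myeloid progenitor markers in the Mpo cells, 9 of 10 plasmacytoid dendritic cell markers in the Siglech cells, and 8 of 10 erythroid markers in the Klf1 cells, with Hba-a1 and Hbb-bs higher in the Retnlg cells. In the Cd34 Adgrl4 cells 7 of 10 stem and progenitor markers were highest, among them Hlf, Mecom, Meis1 and Procr. Gata2 and Kit were highest in the Klf1 cells and Ly6a in the Siglech cells. This last gate was not stem cells alone, since 69.0% of its Control cells, 87.4% of its IR cells and 83.4% of its IR+CBD cells also passed the Mpo gate, and it is therefore called by its genes. The gates held unequal parts of each library. The Cd34 Adgrl4 gate took 29.2% of Control cells, 18.9% of IR cells and 19.2% of IR+CBD cells, the Klf1 gate 5.49%, 14.0% and 11.5%, and the Siglech gate 2.56%, 0.445% and 0.769%, so that only 46 Siglech cells remained in IR and 79 in IR+CBD, against 273 in Control.

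Upstream sequence is shown for Alcam and Cd44, whose levels were lower after irradiation in all cells and in the Cd34 Adgrl4 cells, and for Itga4, whose level was higher. Of the 9 genes, 6 were matched by symbol in a RefSeq table of promoters on GRCm38.p6, a build other than the one named for the count files. Each line gives the 250 bases before the annotated start, 5′ to 3′ on the strand of the gene, with every GGAA or its reverse complement TTCC, the core bound by ETS factors, in capitals.
Alcam, chr16:52453082-52453331, minus strand: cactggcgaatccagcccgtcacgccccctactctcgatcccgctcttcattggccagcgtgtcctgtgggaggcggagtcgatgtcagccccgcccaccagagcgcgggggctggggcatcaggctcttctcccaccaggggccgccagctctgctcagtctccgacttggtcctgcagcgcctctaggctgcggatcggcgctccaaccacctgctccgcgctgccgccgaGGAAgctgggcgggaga
Cd44, chr2:102901666-102901915, minus strand: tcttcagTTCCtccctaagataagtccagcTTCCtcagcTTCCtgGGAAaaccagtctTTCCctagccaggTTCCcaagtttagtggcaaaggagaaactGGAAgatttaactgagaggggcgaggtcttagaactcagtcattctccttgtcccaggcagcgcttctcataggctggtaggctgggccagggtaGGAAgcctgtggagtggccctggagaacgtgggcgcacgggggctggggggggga
Itga4, chr2:79255176-79255425, plus strand: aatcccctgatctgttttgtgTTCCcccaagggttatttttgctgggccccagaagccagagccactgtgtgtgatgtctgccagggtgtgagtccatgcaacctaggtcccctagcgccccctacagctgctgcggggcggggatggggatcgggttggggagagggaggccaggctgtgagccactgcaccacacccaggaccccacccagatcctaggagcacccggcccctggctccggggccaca
The core was present 8 times in the Cd44 window and 1 time each in those of Alcam and Itga4, and at least 1 copy stood in 93.4% of 32817 promoter windows of the same length. The GATA core (GATA, both strands) was found 1 time before Cd44 and not before Alcam or Itga4, against 53.6% of windows with a copy. The CACCC core bound by KLF factors (both strands) was found 4 times before Itga4 and not before Alcam or Cd44, against 52.0% of windows. These letters are a description of the windows and not evidence of binding.

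By the median over the 3 libraries, Alcam and Selplg had the same order across the gates, as did Itgal and Cd44, and the spans of Alcam and Itgb2 were the widest of the 9 genes. Alcam (ENSMUSG00000022636) was highest in the Siglech cells, at 279 CPM (Control), 291 (IR) and 434 (IR+CBD), and lowest in the Klf1 cells, at 10.7, 6.48 and 5.80 CPM, a 44.8-fold difference between the medians of the 3 libraries. Between these ends stood the Retnlg cells (83.4 to 111 CPM), the Mpo cells (56.3 to 60.8), the Cd34 Adgrl4 cells (52.8 to 80.7) and the Cd79a cells (26.7 to 41.0). Only the Mpo and Cd34 Adgrl4 ranges overlapped. In the Klf1 cells 8.64% to 14.2% of cells held an Alcam UMI, against 71.1% to 82.6% of Siglech cells, although the Klf1 cells were the deeper ones, with median depths of 39670.5, 42567 and 40039 UMIs against 7722, 9803 and 7465. Low levels of this kind can include RNA free in the droplets, whose part was not tested.

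**Figure D1:**
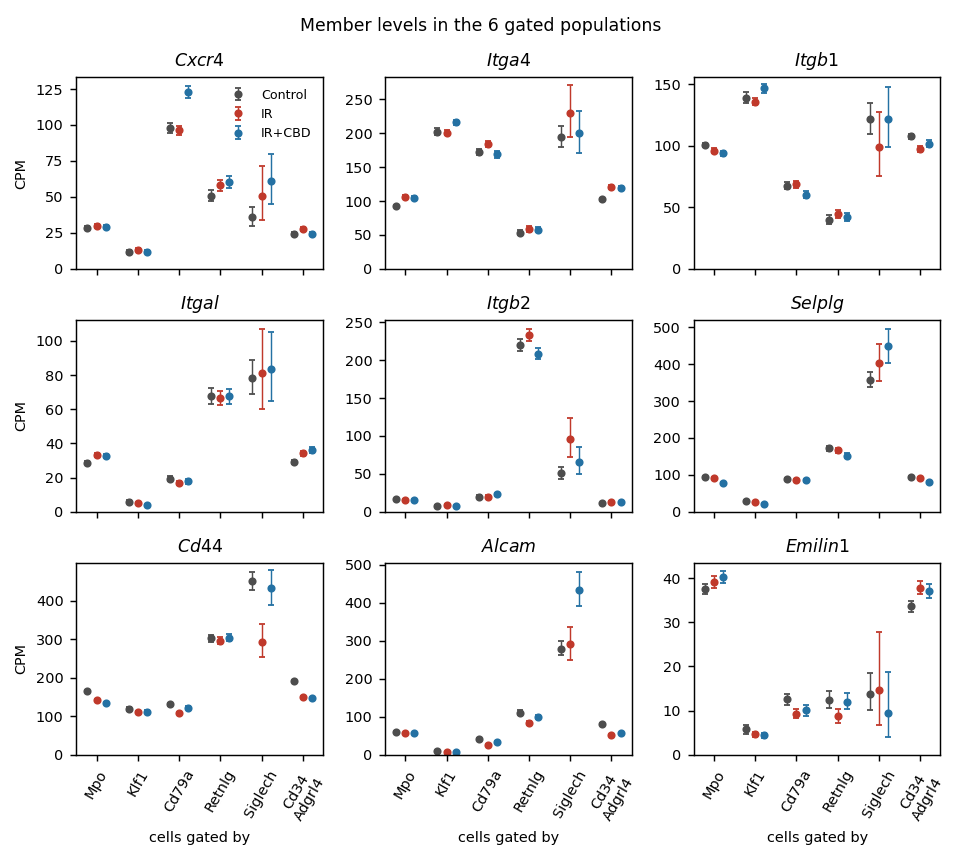
Levels of the 9 genes in the 6 gated populations, 1 panel per gene, with CPM on a linear axis from 0 and 1 point per library (Control grey, IR red, IR+CBD blue). Bars are exact Poisson 95% intervals, widest for the 46 IR and 79 IR+CBD Siglech cells. By the median of the 3 libraries Alcam, Selplg and Cd44 peak in Siglech cells, Itgb2 in Retnlg cells, Cxcr4 in Cd79a cells and Itga4 and Itgb1 in Klf1 cells, but in IR Itga4 is higher in Siglech cells (231 CPM) than in Klf1 cells (201) and Cd44 higher in Retnlg cells (296) than in Siglech cells (294).

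The integrin subunits that pair in VLA-4 had like orders but for the Cd79a cells, at rank 3 for Itga4 and rank 5 for Itgb1. Itga4 (ENSMUSG00000027009), the alpha 4 chain, was at 202 CPM (Control), 201 (IR) and 216 (IR+CBD) in the Klf1 cells, which its range did not separate from the Siglech cells (195 to 231 CPM), and it was lowest in the Retnlg cells (53.5 to 58.6 CPM). Itgb1 (ENSMUSG00000025809), the shared beta 1 chain, was also highest in the Klf1 cells, at 139, 136 and 147 CPM, and lowest in the Retnlg cells, at 40.1, 44.6 and 42.2 CPM. In both genes the ends of the order were apart in every library, 3.51-fold for Itga4 and 3.29-fold for Itgb1. A UMI of both partners was found in 90.7% to 92.9% of Klf1 cells and in 10.8% to 12.4% of Retnlg cells. With every cell thinned to 2000 UMIs the shares were 6.78% to 9.56% and 0.374% to 0.751%, which kept the order at equal depth.

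The LFA-1 subunits had orders other than those of VLA-4, and both were lowest in the Klf1 cells. Itgb2 (ENSMUSG00000000290), the beta 2 chain, was at 220 CPM (Control), 233 (IR) and 209 (IR+CBD) in the Retnlg cells, above the Siglech cells (50.9 to 95.8 CPM) and far above the Klf1 cells (7.52 to 9.15 CPM), 26.9-fold between the medians. Itgal (ENSMUSG00000030830), the alpha L chain, was highest in the Siglech cells, at 78.2, 81.2 and 83.5 CPM, and the Retnlg cells followed at 66.5 to 67.7 CPM without overlap. Its level in the Klf1 cells was 3.76 to 5.87 CPM, a 16.5-fold difference. Both partners were found together in 45.3% to 47.6% of Retnlg cells and in 4.23% to 6.29% of Klf1 cells. After thinning the shares were 6.34% to 8.14% in Retnlg cells, and in the Klf1 cells 0.208% in IR, with 0 of 586 cells in Control and 0 of 1179 in IR+CBD, which allow shares of up to 0.512% and 0.254%.

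Among the molecules of the first steps, Selplg (ENSMUSG00000048163) was highest in the Siglech cells, at 358 CPM (Control), 403 (IR) and 448 (IR+CBD), and lowest in the Klf1 cells, at 30.2, 25.3 and 22.4 CPM. Cd44 (ENSMUSG00000005087) had a narrow span, 3.86-fold, from 294 to 452 CPM in the Siglech cells to 111 to 119 CPM in the Klf1 cells. Its Siglech and Retnlg ranges overlapped, and so did those of the Klf1 and Cd79a cells (108 to 131 CPM). In IR the Cd79a cells, at 108 CPM, lay below the Klf1 cells, at 111. Cxcr4 (ENSMUSG00000045382) was highest in the Cd79a cells, at 97.9, 96.4 and 123 CPM, and was lowest in the Klf1 cells, at 11.7, 13.4 and 11.8 CPM. With cells thinned to 2000 UMIs, 25.8% to 32.0% of Cd79a cells and 2.22% to 3.22% of Klf1 cells held a Cxcr4 UMI. Emilin1 (ENSMUSG00000029163), an extracellular glycoprotein of elastic fibres, was highest in the Mpo cells, at 37.5, 39.1 and 40.2 CPM, with the Cd34 Adgrl4 cells overlapping at 33.6 to 37.9 CPM, and the other gates held 4.36 to 14.6 CPM.

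Over the 18 points of 6 gates in 3 libraries, the pair of members most alike was Selplg with Alcam, with a Pearson r of 0.978 on log2(CPM + 1), followed by Itgal with Alcam at 0.954 and Itgal with Selplg at 0.934. The partners of LFA-1, Itgal with Itgb2, were at 0.761 and those of VLA-4, Itga4 with Itgb1, at 0.718. The most opposed pairs were Itgb1 with Itgb2 at -0.73 and Cxcr4 with Itgb1 at -0.70. These points share libraries, cells and depth, and the correlations are a description. Among 12460 genes, those most like Alcam were Man1c1 (0.994), Cyth4 (0.986) and Uhrf1bp1l (0.981), and those most like Selplg were Ptpn6 (0.992), Rnf13 (0.988) and Fmnl2 (0.987). Itgb2 was most like Pirb (0.995), Cd300lf (0.994) and S100a6 (0.993), and Itgal was most like Tnfaip8l2 (0.9897), Cfp (0.989) and Skap2 (0.988). The nearest genes to Cxcr4 were Fndc9 (0.971), Cyfip2 (0.970) and Grk2 (0.966), a kinase of G protein coupled receptors. For Itga4 they were Mettl23 (0.984), Selenow (0.980) and Zfp280d (0.978), and for Itgb1 Ddx51 (0.978), Tor1b (0.975) and Gabarapl1 (0.973). The nearest genes to Cd44 were Diaph1 (0.970), Irak2 (0.966) and Snx18 (0.954), and Emilin1 was followed by Bace1 (0.989), Cst7 (0.988) and Snx24 (0.986).

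The first comparison asks what acute irradiation left in these molecules at day 14. In all kept cells Alcam was at 71.8 CPM (Control, 95% interval 70.6 to 73.0), 42.9 (IR, 42.0 to 43.9) and 50.2 (IR+CBD, 49.2 to 51.3). Control stood above both irradiated libraries. IR over Control was 0.598 (0.582 to 0.614). Cd44 was at 180.0 CPM (Control), 143 (IR) and 146 (IR+CBD), IR over Control 0.795 (0.783 to 0.808). These were the 2 of 9 members that passed the fold limit, a ratio of 0.8 or less or its reciprocal or more, where 32.1% of 20226 genes with 50 or more UMIs summed over both libraries did so. The share was 12.8% among the 5146 genes whose summed UMIs lay within the range of the members, a comparison group added after the data had been seen. Itga4 was the member with the highest ratio, at 127 CPM (Control), 152 (IR) and 149 (IR+CBD), 1.20 (1.18 to 1.22) for IR over Control. As the mean over cells of the CPM of each cell, the Itga4 ratio was 1.02. By that measure IR+CBD over Control was 0.955 for Itga4, against 1.17 in the summed UMIs. Selplg was at 99.0, 82.7 and 76.9 CPM, its ratio being 0.836 (0.819 to 0.854). Emilin1 (0.845) and Itgal (0.888) were lower in IR by less, and Cxcr4 (1.01), Itgb1 (0.995) and Itgb2 (1.02) had intervals that included 1. The median log2 ratio was -0.17 over the 9 members and -0.05 over all genes.

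**Figure D2:**
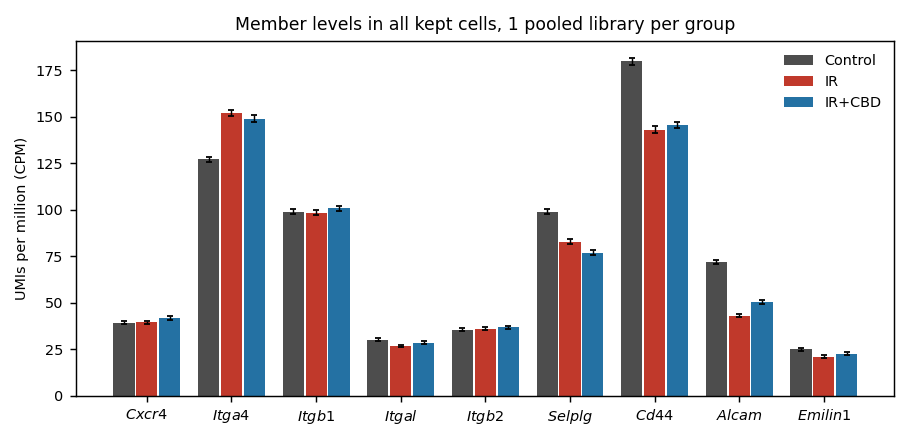
CPM of the 9 genes in all kept cells of the Control (grey), IR (red) and IR+CBD (blue) libraries, on an axis from 0, with exact Poisson 95% intervals for counting error. Alcam, Cd44 and Selplg are highest in Control and Itga4 is lowest there, while Cxcr4 and Itgb2 are nearly level across the 3 libraries.

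The make-up of the libraries moved with these ratios. When each gate alone, the cells in more than 1 gate and the cells in none were given their Control share of UMIs, the IR over Control ratio was 0.760 for Alcam, 0.845 for Cd44 and 1.14 for Itga4. Under the same weights Selplg was at 0.983 and Emilin1 at 1.00, and Itgal was at 1.06, on the other side of 1. Alcam was then the only member past the fold limit, and no share over all genes is given under these weights. Cells that passed the Klf1 gate alone held 9.5% of the Control UMIs, 24.4% of the IR UMIs and 22.2% of the IR+CBD UMIs, and in them Alcam, Selplg, Itgal and Emilin1 were low. The part of the cell mix in the all-cell ratios was otherwise not tested.

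**Figure D3:**
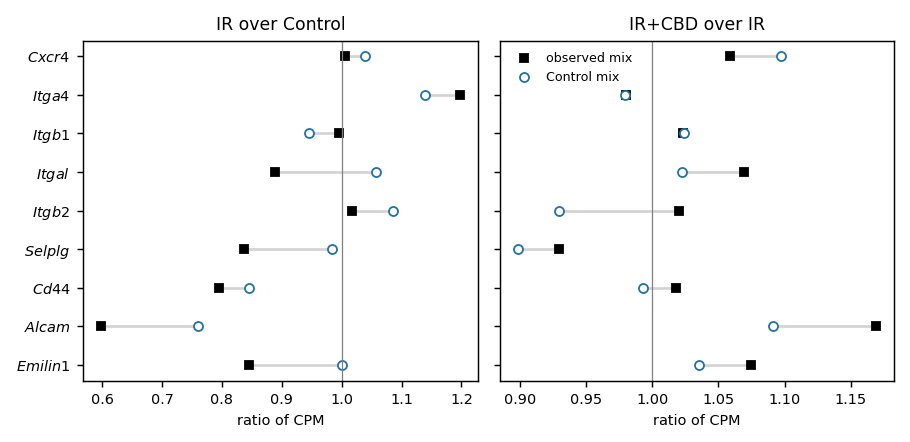
Ratio of CPM in all cells for IR over Control (left) and IR+CBD over IR (right), per gene on linear axes of different range. Filled squares are the observed libraries and open circles the same cells weighted to the Control mix of gates. For IR over Control, Selplg moves from 0.836 to 0.983 and Emilin1 from 0.845 to 1.00, while Alcam stays lowest at 0.760.

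Within gates Alcam was lower in IR than in Control in 5 of 6. The ratio was 0.605 in the Klf1 cells, 0.652 in the Cd79a cells, 0.654 in the Cd34 Adgrl4 cells, 0.751 in the Retnlg cells and 0.932 in the Mpo cells, with all 5 intervals below 1, and 1.04 (0.881 to 1.22) in the Siglech cells. The direction in the Mpo cells rested on cells that also passed another gate, since without them Alcam was at 53.3 CPM in Control and 70.6 in IR, a ratio of 1.33 (1.24 to 1.42), past the fold limit on the other side of 1, and it was 1.09 with gates set after thinning. One IR cell in the Klf1 gate held 95 of its 411 Alcam UMIs, and Klf1 cells of no other gate were at 3.6 CPM (Control), 1.2 (IR) and 1.6 (IR+CBD). Cd44 was lower in IR in the Siglech cells (0.650, from 46 IR cells), the Cd34 Adgrl4 cells (0.783), the Cd79a cells (0.822) and the Mpo cells (0.855), and was closer to 1 in the Klf1 (0.934) and Retnlg cells (0.980). The ratio for Itga4 was 1.15 (1.12 to 1.18) in the Mpo cells and 1.07 (1.03 to 1.10) in the Cd79a cells, the latter being 0.977 without Scrublet doublets, while that of the Klf1 cells, where the gene was highest, was 0.992 (0.959 to 1.02). Selplg was between 0.966 and 0.985 in the Mpo, Cd79a, Retnlg and Cd34 Adgrl4 cells and lower in the Klf1 cells, at 0.836 (0.766 to 0.914). Without cells in more than 1 gate the Selplg ratio in the Cd79a cells was 1.20, at 77.7 CPM in Control and 93.3 in IR. In the Siglech cells, where 40.8% of 7988 genes were past the fold limit, Itgb2 had a ratio of 1.88 (1.37 to 2.55). Beside it, the 10 neutrophil markers summed to 5565 CPM in the Control, 19594 in the IR and 5659 in the IR+CBD Siglech cells, and their part in the ratio was not tested.

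**Figure D4:**
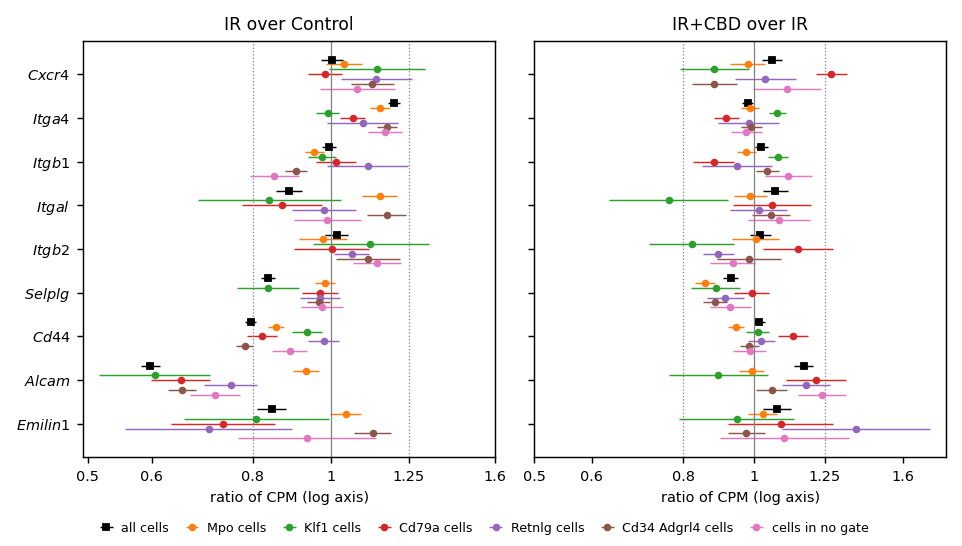
Ratios of CPM with exact conditional binomial 95% intervals on log axes, for IR over Control (left) and IR+CBD over IR (right), in all cells (black squares), 5 gates and the cells of no gate (coloured points). The Siglech gate is left out for its 46 IR cells. Solid lines mark 1 and dotted lines 0.8 and its reciprocal; on the left every Alcam point lies below 1, and on the right 3 points lie outside the dotted lines, Cxcr4 in Cd79a cells, Itgal in Klf1 cells and Emilin1 in Retnlg cells.

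The Cd34 Adgrl4 cells, which held most of the stem and progenitor markers, held 2 members past the fold limit between IR and Control. Alcam was at 80.7 CPM (Control), 52.8 (IR) and 55.9 (IR+CBD), and Cd44 at 191, 149 and 147 CPM. For both genes the 2 irradiated libraries lay close together and below Control. Their IR over Control ratios, 0.654 (0.628 to 0.681) and 0.783 (0.764 to 0.802), made 2 of 9 members past the fold limit, where 26.5% of 16949 genes were. Itga4 was higher in IR, at 103, 121 and 120 CPM in the 3 libraries, its ratio being 1.17 (1.14 to 1.21), and so was Itgal, at 29.2, 34.3 and 36.2 CPM, its ratio being 1.17 (1.11 to 1.24). Itgb1 was lower, at 107, 97.4 and 102 CPM, its ratio being 0.906 (0.878 to 0.935), so the partners of VLA-4 stood on opposite sides of 1. Cxcr4 (1.13), Emilin1 (1.13) and Itgb2 (1.11) were higher in IR, and Selplg was at 0.966 (0.935 to 0.998). The median log2 ratio was 0.15 over the 9 members and -0.05 over all genes.

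Since most of these cells also passed the Mpo gate, those of no other gate and those also in the Mpo gate were read apart. The subset inside the Mpo gate was an addition after the data had been seen. Cells that passed another gate but not the Mpo gate were in neither subset. In the 863 Control, 211 IR and 277 IR+CBD cells that passed no other gate, Alcam was at 169 CPM (Control, 162 to 176), 64.9 (IR, 57.9 to 72.6) and 73.3 (IR+CBD, 65.9 to 81.3). IR over Control was 0.385 (0.340 to 0.433). Cd44 was at 270.1 CPM (Control), 172 (IR) and 160.2 (IR+CBD), its ratio being 0.636 (0.588 to 0.686). Itga4 was at 121, 184 and 171 CPM, its ratio being 1.53 (1.41 to 1.66), and Itgb1 was at 118, 97.2 and 114 CPM. Selplg was at 101, 99.5 and 76.4 CPM, lower in IR+CBD, with IR+CBD over IR at 0.768 (0.668 to 0.881). Cxcr4 was at 16.3, 15.9 and 17.2 CPM, with IR lowest and all intervals overlapping, IR over Control at 0.978 (0.743 to 1.27) and IR+CBD over IR at 1.08 (0.782 to 1.496). In the cells that also passed the Mpo gate the same genes differed less. The ratios were 0.807 (0.772 to 0.844) for Alcam, 0.845 (0.823 to 0.868) for Cd44 and 1.18 (1.15 to 1.22) for Itga4. None of the 9 was past the fold limit for IR over Control there. No share over all genes is given for this subset, and in the whole Cd34 Adgrl4 gate it was 26.5%.

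In the cells of no other gate the 10 stem and progenitor markers summed to 1403 CPM (Control), 1487 (IR) and 1481 (IR+CBD). Hlf was at 169.7, 103.8 and 124.4 CPM and Mecom at 325.8, 423 and 453 CPM. Ly6a was at 69.2, 216 and 57.8 CPM, so the IR sum rested in part on this gene. Of the 10 markers 4 were higher in Control than in both other libraries. The 6 megakaryocyte markers were at 389, 144 and 127 CPM in sum. This difference rested mainly on Pf4, at 321, 92.1 and 63.3 CPM, which like Alcam and Cd44 was highest in Control. Of the 6 markers 4 were higher in Control than in both other libraries, among them Gp1bb and Ppbp at 2.5 CPM or less. Itga2b, at 40.7, 29.7 and 45.5 CPM, and Gp9 were highest in IR+CBD. The 10 plasmacytoid dendritic cell markers summed to 1002, 893 and 755 CPM, with 6 of 10 highest in Control. Of the 10 B lineage markers 7, and of the 10 T and NK markers 9, were also higher in Control than in both other libraries, with sums of 285, 220 and 203 CPM and of 180, 306 and 295 CPM. Nkg7 made up most of the T and NK sum (173, 305 and 294 CPM), and the other 9 were at 1.36 CPM or less. The 10 neutrophil markers summed to 2626, 1548 and 5407 CPM. The part of these cell types in the Alcam and Cd44 ratios was not tested. The 10 endothelial markers summed to 361, 372 and 320 CPM. Most of this sum came from Egfl7, at 188, 213 and 189 CPM, and Pecam1, at 139, 133 and 109 CPM. Among the 6 gates, 4 of the 10 endothelial markers (Emcn, Cldn5, Egfl7 and Tie1) were highest in the whole Cd34 Adgrl4 gate. Cdh5 and Cldn5 were at 0.16 CPM or less there.

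**Figure D5:**
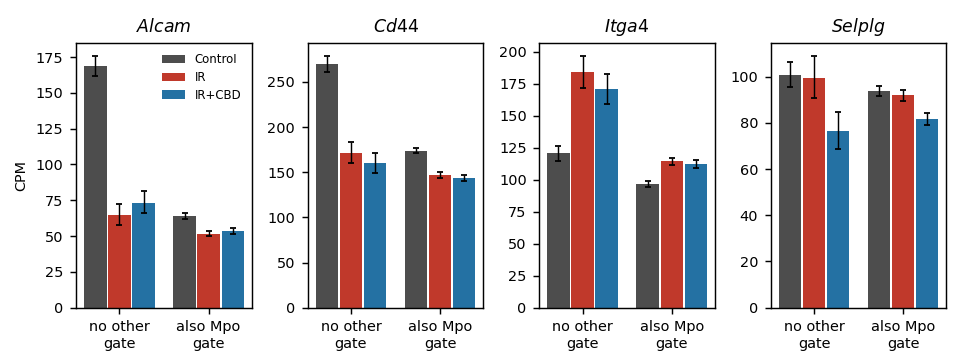
CPM of Alcam, Cd44, Itga4 and Selplg in Cd34 Adgrl4 cells that passed no other gate (left group of each panel) and that also passed the Mpo gate (right group), in Control (grey), IR (red) and IR+CBD (blue), with exact Poisson 95% intervals. Axes start at 0 and differ between panels. In the cells of no other gate Alcam is at 169 CPM in Control against 64.9 and 73.3, and Itga4 at 121 against 184 and 171.

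The second comparison asks what cannabidiol changed in irradiated marrow. It shares the IR library with the first, so a value low in IR by sampling would raise one ratio as it lowers the other. In all cells no member passed the fold limit between IR+CBD and IR, where 16.9% of 19867 genes did (2.0% of 5201 genes in the UMI range of the members). The ratio was highest for Alcam, 1.17 (1.14 to 1.20), and IR+CBD remained below Control, at 0.699 (0.681 to 0.718). With the cells weighted to the Control mix, Alcam was at 1.09 over IR and at 0.829 over Control. Selplg was lowest, 0.929 (0.908 to 0.951), and IR+CBD over Control was 0.777 (0.760 to 0.794), or 0.883 with the Control mix. Itgal (1.07), Emilin1 (1.07), Cxcr4 (1.06), Itgb1 (1.02), Itgb2 (1.02), Cd44 (1.02) and Itga4 (0.980) were all within the fold limit. The median log2 ratio was 0.03 over the 9 members and 0.00 over all genes.

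In the Cd34 Adgrl4 cells no member was past the fold limit for IR+CBD over IR either, against 15.9% of 15951 genes. Cxcr4, the receptor for CXCL12, was at 24.5 CPM (Control), 27.6 (IR) and 24.4 (IR+CBD), so IR was highest, and IR+CBD over IR came to 0.883 (0.823 to 0.947), though in the cells of no other gate IR was lowest, as given above. Selplg was at 95.5, 92.3 and 81.7 CPM, its ratio being 0.885 (0.851 to 0.920). Alcam (1.06) and Cd44 (0.986) stayed near the IR level and below Control. The ratio was 0.992 (0.960 to 1.02) for Itga4 and 1.06 (0.994 to 1.12) for Itgal.

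Among the other gates, Cxcr4 was the member past the fold limit for IR+CBD over IR in the Cd79a cells, where 18.6% of 14704 genes were. Cxcr4 was at 97.9 CPM (Control, 94.4 to 101), 96.4 (IR, 93.2 to 99.6) and 123 (IR+CBD, 119 to 127). Control and IR overlapped and IR+CBD lay above both, its ratio being 1.28 (1.22 to 1.34) over IR and 1.26 (1.20 to 1.32) over Control. The ratio over IR was inside the fold limit without Scrublet doublets (1.24) and as the mean over cells of the CPM of each cell (1.20). The share of Cd79a cells with a Cxcr4 UMI, thinned to 2000 UMIs, was 26.3%, 25.8% and 32.0%. In the same cells Alcam was 1.22 (1.11 to 1.34) and Cd44 1.13 (1.08 to 1.19) over IR, while Itga4 (0.917) and Itgb1 (0.880) were lower. Selplg was lower in IR+CBD than in IR in the Mpo cells, 0.857 (0.830 to 0.885), and in the Retnlg cells, 0.914 (0.863 to 0.968). Itgal was at 0.764 (0.633 to 0.921) in the Klf1 cells, on 312 IR and 181 IR+CBD UMIs, and Emilin1 at 1.38 (1.09 to 1.74) in the Retnlg cells, on 129 and 175 UMIs. The Itgal value was 0.845 with doubled gate limits, and that of Emilin1 was 1.11 without Scrublet doublets and 1.08 without cells in more than 1 gate. In the Siglech cells Alcam was at 1.49 and Cd44 at 1.47, from 46 IR and 79 IR+CBD cells, and without Scrublet doublets both were inside the fold limit, at 1.18 and 1.23. Over all genes the share past the fold limit for IR+CBD over IR was 14.8% in the Klf1, 17.5% in the Retnlg and 38.2% in the Siglech cells.

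Other genes of homing and adhesion were read from 8 lists, with all genes as background as given above for all cells (32.1% past the fold limit for IR over Control). Of 15 other integrin subunits, 10 were lower in IR than in Control past the fold limit and none was higher, with a median log2 ratio of -0.61. Of 12 niche ligands and matrix genes with at least 50 UMIs, 9 were lower and 1 higher (median -0.65). Of 23 other adhesion and junction genes 9 were lower and 2 higher, of 13 chemokine and lipid receptors 6 lower and 2 higher, and of 14 genes of CXCR4 signalling and turnover 4 lower and none higher. Of 13 integrin activators 1 was lower, and of 11 matrix and shedding proteases 2 were lower and 2 higher. Of the 14 selectins and enzymes that build their ligands 4 were higher and 1 lower (median 0.13). For IR+CBD over IR, with 16.9% of all genes past the fold, 2 of 15 other integrin subunits, 5 of 12 niche genes, 4 of 22 adhesion and junction genes, 1 chemokine receptor, 1 CXCR4 signalling gene and 1 protease were higher. In that comparison 1 niche gene and 2 selectin genes were lower, and none of the 13 integrin activators passed in either direction.

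Highest in IR over Control were Mmp14, a membrane metalloproteinase (4.07 CPM in Control, 8.63 in IR, 8.81 in IR+CBD; ratio of IR over Control 2.12), Icam4, an erythroid ligand of integrins (14.8, 28.0 and 24.3 CPM, 1.89), and Selp, which encodes P-selectin, the partner of PSGL-1 (5.32, 8.89 and 9.21 CPM, 1.67). In the Klf1 cells Mmp14 was at 23.9, 24.1 and 27.5 CPM and Icam4 at 62.1, 68.6 and 61.3 CPM, close to level. Selp was at 7.70, 18.2 and 19.6 CPM in the Cd34 Adgrl4 cells, higher in both irradiated libraries. Lowest were Ccr9, a chemokine receptor (7.14, 1.45 and 2.52 CPM, 0.203), and the matrix proteoglycan Vcan (7.93, 3.03 and 3.0 CPM, 0.382). With them stood Rgs1, a brake on chemokine receptor signalling (0.374). Ccr9 was also among the plasmacytoid dendritic cell markers and was highest in the Siglech cells. Their share of kept cells was 2.56% (Control), 0.445% (IR) and 0.769% (IR+CBD). In the Cd34 Adgrl4 cells of no other gate Ccr9 was at 8.35 CPM (Control), 0.849 (IR) and 2.25 (IR+CBD). The part of the Siglech share in the Ccr9 ratio was not tested. Rgs1 was at 101.9 CPM (Control), 38.1 (IR) and 65.6 (IR+CBD) in all cells, and at 140.2, 60.2 and 117 CPM in the Cd34 Adgrl4 cells, so that IR was lowest in both. For IR+CBD over IR the highest were Vcam1, the ligand of VLA-4 (1.83), Rgs1 (1.72) and Thbs1, a matrix protein (1.43). Vcam1 was at 6.41 CPM (Control), 4.55 (IR) and 8.33 (IR+CBD) in all cells. In the Cd34 Adgrl4 cells it was at 3.65, 3.59 and 4.42 CPM. The paper identified no niche populations in these data. The lowest were the sialyltransferase St3gal6 (0.787), Dpp4, which cleaves CXCL12 (0.808), and Ccr2, the receptor of inflammatory monocytes (0.821). For IR+CBD over Control the genes were those of IR over Control but for Itgb5, the beta 5 integrin chain, among the lowest (0.441), and Rgs1, which was not among them.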

How the data were processed

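Bone marrow nucleated cells of 1 pooled library per group were read by droplet sequencing with 3′ counting. The authors deposited a matrix of raw UMI counts per gene and cell for each library, with gene and barcode lists and no normalization. Cell Ranger 7.0.1, whose default includes introns, stands in the headers of the matrices, but the submitters' processing notes and the methods give Cell Ranger 4.0. The notes give GRCm39. Every barcode (36035 in all) was listed as a cell.

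Cells with at least 200 genes and at most 5% UMIs of genes named mt- were kept (31292), as in the methods. No doublets were removed for the main values; the study removed them. UMIs were summed per population and library, giving CPM, and a gene was past the fold limit at a ratio of at most 0.8 or at least its reciprocal, with 50 or more UMIs over both libraries. Shares of cells have Clopper-Pearson 95% intervals. Thinned shares drew 2000 UMIs per cell and left out 401 Control, 296 IR and 452 IR+CBD shallower cells. Where a gene was at 0 no fold was given. Replicates were not available, so no p-value is given. Python 3.11.15, numpy 2.4.6, scipy 1.17.1, pandas 2.3.3, matplotlib 3.10.9 and scanpy 1.11.5 (Scrublet, as an alternative) were used. Alternatives changed the cell filters, the gates, the scaling and the fold limit.

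The members, gates, marker lists and gene lists were chosen with earlier results of these data known, and the study had itself named Alcam from these libraries, so its difference is not independent evidence. Named genes of the lists were the 3 highest and 3 lowest per comparison in all cells, by the interval bound nearest to 1, among genes with at least 1000 UMIs; the genes most like a member were the 3 with the highest Pearson r. On simulated data for all cells with 200 of 20226 genes changed by known folds, 95.4% of intervals for IR over Control held the true ratio. The simulated sums were independent Poisson draws, for which such intervals hold by construction. This checks the computation only, and not the spread of UMIs between cells or mice in these data.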

Additional observations from a re-analysis of the deposited data

Results flagged for a closer look

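The ratio of IR+CBD over Control lay on opposite sides of 1 in 2 populations for 2 genes, past the fold limit in both. Selplg was at 0.741 (0.674 to 0.815) in the Klf1 cells and at 1.253 (1.11 to 1.41) in the Siglech cells. Alcam was at 0.541 (0.455 to 0.643) in the Klf1 cells and at 1.55 (1.37 to 1.76) in the Siglech cells. The Selplg values were inside the fold limit without cells in more than 1 gate, at 0.814 in the Klf1 cells and 1.22 in the Siglech cells. Over all genes 23.0% of 13521 in the Klf1 cells and 36.3% of 8145 in the Siglech cells were past the fold limit. The differences between the populations were not tested, since each condition is 1 library. The Klf1 values for Alcam rest on levels of 10.7 CPM in Control and 5.80 in IR+CBD, and the Siglech values on 273 Control and 79 IR+CBD cells.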

How the results depend on the processing

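The counts of members past the fold limit depended on how cells were grouped. No share over all genes stands beside the alternative counts. For IR over Control in all cells the count was 2, and it was 5 without cells in more than 1 gate (Itgal, Selplg and Emilin1 also passed), 1 with median-ratio scaling, 1 with the Control mix of gates and 1 with a limit of 1.5-fold. For IR+CBD over IR in all cells it was 0, and 1 (Alcam) without cells in more than 1 gate and 1 (Alcam) with the mean over cells of the CPM of each cell. For IR over Control in the Cd34 Adgrl4 cells the count was 2, and 6 with gates set after thinning to 2000 UMIs, which left 609 Control, 179 IR and 275 IR+CBD cells, 1 with median-ratio scaling, 1 with a limit of 1.5-fold and 0 in the cells also in the Mpo gate, a choice made after seeing the data. For IR+CBD over IR in those cells it was 0, and 1 (Selplg) without cells in more than 1 gate and 1 (Cxcr4) with gates after thinning. Where no construction shows it, the cause was not tested. Alcam for IR over Control in all cells ranged from 0.508 (without cells in more than 1 gate) to 0.760 (Control mix) under the alternatives that can change it; the gate limits cannot. In the Mpo cells it turned from 0.932 to 1.33 without cells in more than 1 gate. A ratio past the fold limit turned around for 1 gene in 1 population: Emilin1 for IR over Control in the Retnlg cells, 0.707, was 1.02 without Scrublet doublets and 1.05 without cells in more than 1 gate. The same counts for IR+CBD over Control and in the other gates are not listed here, though members past the limit there are named above. These 20 counts took 202 values under the alternatives, of which 54 differed by over 1.5 times, at least 1 for each count; the summary of these as totals was chosen after they had been seen to vary. Of 216 ratios, all 216 stayed within their counting interval with a 10% mitochondrial limit and with at least 1000 genes per cell. Outside it lay 31 without Scrublet doublets, 81 without cells in more than 1 gate, 21 with doubled gate limits, 86 with gates after thinning, 13 with median-ratio scaling and 71 with the mean over cells, the Emilin1 reversals above not counted, and 23 of 27 with the Control mix. No paired analysis was possible because each group has 1 library. Cell number limits the Siglech values, where 46 IR cells held 9 Emilin1 UMIs, and depth the Cd79a shares, at median depths of 4042 (Control), 3851.5 (IR) and 3416.5 UMIs (IR+CBD).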
